A study of Mus musculus with 11 samples.

Results

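A group of 10 heat shock chaperone genes was followed in sorted cells of mouse mammary outgrowths: Hspa1a, Hspa1b, Hspa8, Hsph1, Dnajb1, Hsp90aa1, Hsp90ab1, Hspb1, Hspd1 and Hspe1. The rule takes them by name, as 10 genes of a known family, and uses no measured value; every probe whose RefSeq accession belongs to one of them was taken. This gave 14 probes for 9 of the 10 genes, 3 each for Hspa8 and Hspe1, 2 for Hsph1 and 1 for each of the others. Hspa1b had no probe through its accession, so the values below cover 9 genes of the 29430 features tested, of which 14069 were named genes. All 9 lay well above background on all 11 arrays, so none entered through the group in which it was high.

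Heat shock proteins are chaperones: they hold unfolded polypeptides and help them fold, or pass them on for degradation. The Hsp70 proteins bind short unfolded stretches with the help of J-domain partners, the Hsp90 proteins act later on kinases and receptors, small heat shock proteins hold aggregating proteins, and a barrel-shaped chaperonin folds proteins inside mitochondria. Heat and other protein-damaging stress activate the transcription factor Hsf1, which binds repeated GAA and TTC triplets in front of these genes. In the mammary gland the epithelium has an inner luminal and an outer basal layer, and the basal layer is mostly contractile myoepithelial cells.

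The study compared outgrowths that carried a hairpin against Ror2 (shROR2), a receptor of non-canonical Wnt signalling, with outgrowths that carried a control hairpin against luciferase (shLUC), and asked what the hairpin changed in each layer. All groups were made alike: primary mouse mammary epithelial cells were dissociated with trypsin, transduced with lentivirus in suspension and injected in matrigel, and the outgrowths were sorted on CD24 and CD29 into basal and luminal cells. The 4 groups were basal shROR2 (3 arrays), basal shLUC (3 arrays), luminal shROR2 (2 arrays, with 1 more sample not analysed here) and luminal shLUC (3 arrays). The labels name no promoter that would restrict the hairpin to 1 layer, describe the samples as biological triplicates, and do not say which arrays share an outgrowth; strain and age of the mice are not given in the sources used here. RNA was amplified before labelling with Cy3 and hybridization to one-colour Agilent arrays.

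Of the probes, 52.8% to 59.5% lay well above background on an array. Correlations between arrays within a group were 0.941 to 0.953 in basal shROR2, against 0.976 to 0.982 in basal shLUC, and 0.983 in luminal shROR2, against 0.981 to 0.983 in luminal shLUC, so the basal shROR2 arrays stood further apart than those of any other group. The only Ror2 probe was dim, with processed signals of 16.8, 3.03 and 6.93 in basal shROR2, against 11.1, 12.1 and 10.1 in basal shLUC, and 3.54 and 8.47 in luminal shROR2, against 3.14, 3.44 and 3.48 in luminal shLUC. The highest of these was on the array labelled basal shROR2 replicate 1, so the probe does not check the hairpin labels, and groups are named here as labelled. Markers fit the sorted layers in the control outgrowths. At a limma adjusted p under 0.05, 7 of 8 myoepithelial genes were higher in basal than in luminal shLUC cells and 10 of 10 luminal genes were lower. Of all features, 26.9% passed in either direction. Trp63 was the myoepithelial gene that did not pass (0.15, adjusted p = 0.295). The arrays lay on 2 slides, and each slide held every group.

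The promoters of the heat-inducible Hsp70 genes are shown because Hspa1a gave the largest hairpin change of the 9 genes in basal cells, and because the twin gene Hspa1b has almost the same sequence. These are the 250 bases before the annotated start in RefSeq (mouse build GRCm38.p6), on the minus strand at chr17:34972157-34972406 for Hspa1a and chr17:34959239-34959488 for Hspa1b, with no annotated gene over either window. Capitals mark a match to GAANNTTC or TTCNNGAA, a unit of 2 triplets searched on both strands.
Hspa1a: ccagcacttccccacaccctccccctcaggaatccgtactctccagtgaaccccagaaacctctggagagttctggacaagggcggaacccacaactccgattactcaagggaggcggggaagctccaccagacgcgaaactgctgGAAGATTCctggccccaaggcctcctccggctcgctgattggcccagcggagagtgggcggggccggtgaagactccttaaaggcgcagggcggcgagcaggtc
Hspa1b: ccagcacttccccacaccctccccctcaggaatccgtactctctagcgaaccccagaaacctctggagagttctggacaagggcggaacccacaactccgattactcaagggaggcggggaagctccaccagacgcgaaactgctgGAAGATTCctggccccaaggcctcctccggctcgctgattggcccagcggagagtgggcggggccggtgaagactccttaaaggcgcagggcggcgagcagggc
Both windows differ at 3 of 250 bases, an identity of 98.8%, and in both the single match begins 104 bases before the start. The files hold no probe sequences, so whether the Hspa1a probe also reads Hspa1b transcript could not be checked, and its values may belong to both genes.

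The other matches are short. For Hspb1 (plus strand, chr5:135887791-135887820), Hsph1 (minus strand, chr5:149636351-149636380) and Hspe1 (plus strand, chr1:55088050-55088079), 30 bases around the first match are printed, with the matches in capitals as above.
Hspb1: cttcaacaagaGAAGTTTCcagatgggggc
Hsph1: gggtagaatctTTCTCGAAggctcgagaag
Hspe1: cacggtccgTTCTAGAACCTTCCGGAAggc
In Hspe1 the matches run on into one another and also make 3 alternating triplets, the full heat shock element. The genes Hspe1 and Hspd1 lie head to head, so this stretch counts for both. Of the 7 genes with a promoter entry, 6 held a 2-triplet unit in at least 1 of their windows, and Dnajb1 held none. The unit was found in 12.8% of all 32851 promoter windows of that length and the 3-triplet element in 0.466%. The 250-base windows of Hsph1 and Hspe1 overlap annotated genes, Hsph1 itself and Hspd1. These are letter matches and say nothing of binding in these cells. Hspa8, Hsp90aa1 and Hsp90ab1 are named only.

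Values below are scaled log2 signals, that is, the log2 processed signal of the probe minus that of the 75th percentile of its array, so a value of 0 is the level of the 75th percentile. Changes are differences of group means on that scale ± standard error; limma gave the adjusted p, by Benjamini and Hochberg over all 29430 features. A feature was called at an adjusted p under 0.05. Signals of different probes are not set against each other.

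In basal cells Hspa1a rose with the Ror2 hairpin and no other of the 9 genes passed the test. Hspa1a, the stress-inducible cytosolic Hsp70, read 2.38, 2.55 and 2.09 in basal shROR2, against 0.72, 0.85 and 0.62 in basal shLUC. Every basal shROR2 array lay more than 1 log2 unit above every basal shLUC array. All 3 also lay above every luminal array, by a smaller margin. In processed signal these were 590 ± 98.6 in basal shROR2 and 204 ± 31.3 in basal shLUC (SD, n = 3 each). The log2 change was 1.61 ± 0.14 (95% interval 1.30 to 1.92, 3.05-fold, limma adjusted p = 0.00493). It was 1.56 on slide 1 and 1.70 on slide 2, where replicate 2 was the only basal array of each hairpin. With each array left out in turn it ranged from 1.504 to 1.74 with adjusted p from 0.00386 to 0.0400. Without the array labelled basal shROR2 replicate 1, on which Ror2 was highest, it was 1.59 (adjusted p = 0.00817). The call ended where only the 6 basal arrays were fitted (adjusted p = 0.188), a fit in which none of the 29430 features was called. The standard error and interval above use a spread of the gene shared by all 4 groups. On the log2 scale the SD of Hspa1a was 0.23 in basal shROR2 and 0.12 in basal shLUC. It was 0.11 in luminal shLUC and 0.003 in luminal shROR2.

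Read against all features, 1 of 9 genes was called beside a background of 0.968% (285 of 29430, of which 113 were higher and 172 lower). That is 39.6% higher, a share that became 53.2% of 205 calls when arrays were scaled by their median. The median change of the 9 genes was 0.12, and of all features -0.05. In 3 of the 9 genes every shROR2 array lay above every shLUC array, against 6.72% of all features. Those were Hspa1a, Dnajb1 and Hsph1.

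**Figure D1:**
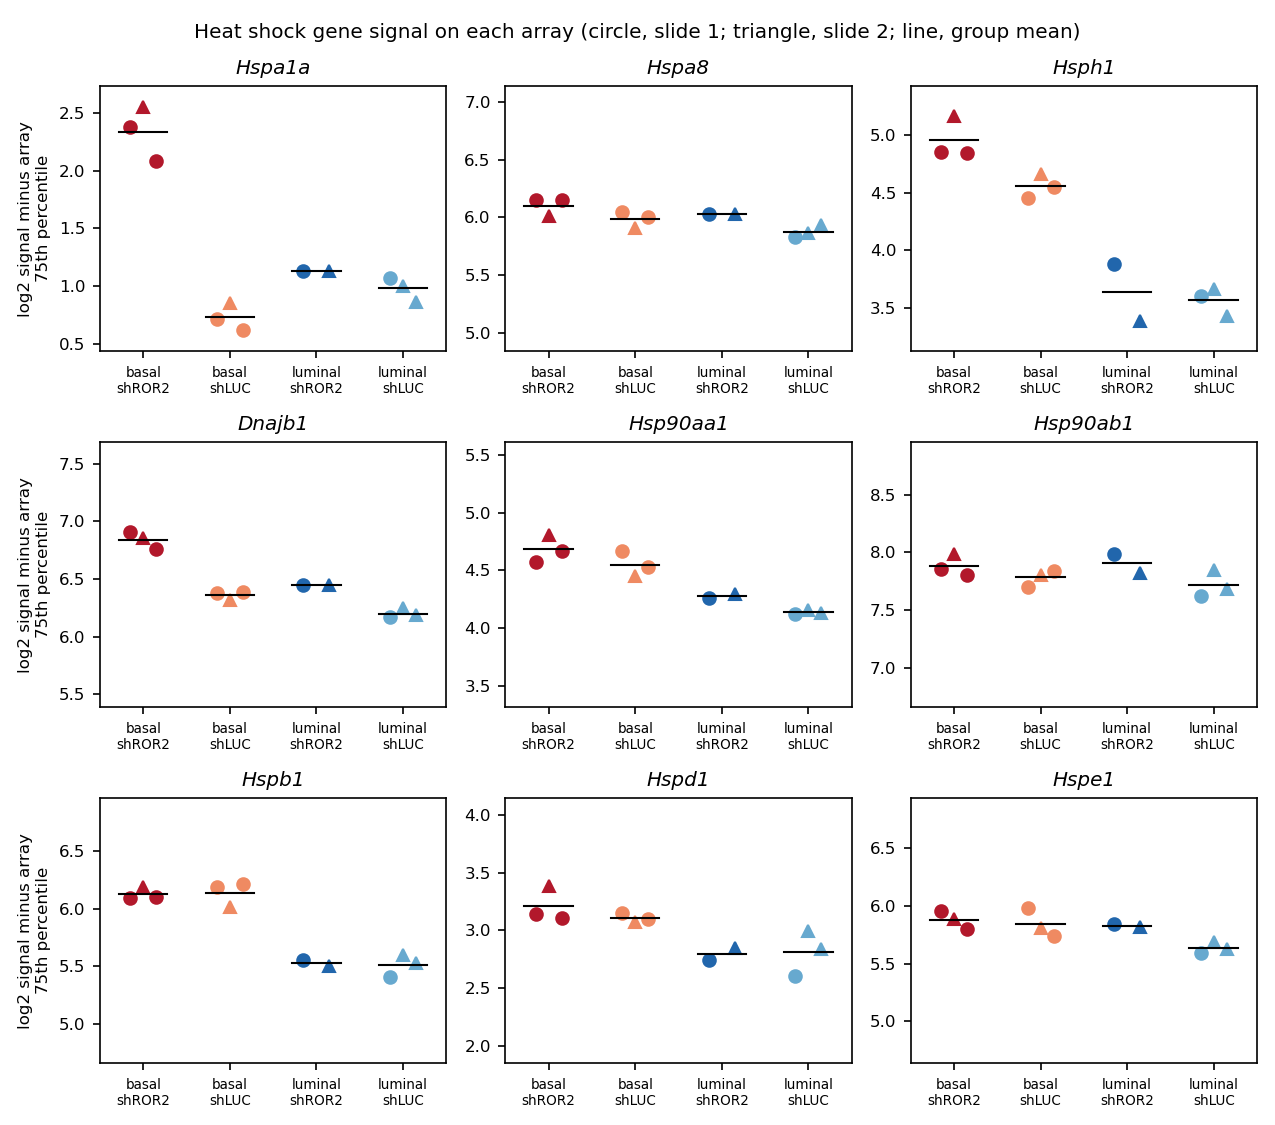
Scaled log2 signal of the 9 measured genes (vertical axis, relative to each array's 75th percentile) on each of the 11 arrays, with groups on the horizontal axis in the order basal shROR2, basal shLUC, luminal shROR2 and luminal shLUC. Circles are slide 1, triangles slide 2, lines group means, and every panel spans the same log2 range; Hspa1a stands at 2.09 to 2.55 in basal shROR2 and at 0.62 to 1.13 on all other arrays.

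Dnajb1 encodes the J-domain partner that loads substrates onto Hsp70 and starts its ATP cycle. It read 6.91, 6.85 and 6.76 in basal shROR2, against 6.38, 6.32 and 6.39 in basal shLUC. The arrays did not overlap, but the change of 0.47 ± 0.09 (95% interval 0.26 to 0.68) did not pass the test over all features (limma adjusted p = 0.0582). It stood close to the threshold, and under 4 of 11 other settings it was called, with the lowest adjusted p, 0.0122, in the authors' table. Hsph1 encodes Hsp110, which exchanges the nucleotide of Hsp70. Its brighter probe read 4.85, 5.16 and 4.84 in basal shROR2, against 4.45, 4.66 and 4.55 in basal shLUC. The groups did not overlap, and the change was 0.40 ± 0.16 (adjusted p = 0.271). The second Hsph1 probe read 2.29, 2.80 and 2.42 in basal shROR2, against 2.36, 2.40 and 2.24 in basal shLUC. There the groups overlapped, and the change was 0.17 ± 0.15.

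Hspa8, the constitutive Hsp70 that every cell uses, read 6.15, 6.01 and 6.15 in basal shROR2, against 6.05, 5.91 and 6.004 in basal shLUC. The groups overlapped, with a change of 0.12 ± 0.10 (95% interval -0.11 to 0.34, adjusted p = 0.615), and the other Hspa8 probes gave 0.13 and 0.14. That interval ends far below the lower end of the Hspa1a interval. The difference between these genes was not tested.

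The Hsp90 genes overlapped between the hairpins in basal cells. Hsp90aa1, the inducible cytosolic Hsp90, read 4.57, 4.80 and 4.67 in basal shROR2, against 4.67, 4.45 and 4.52 in basal shLUC, a change of 0.13 ± 0.11 (adjusted p = 0.589). Hsp90ab1, the constitutive form, read 7.86, 7.99 and 7.81 in basal shROR2, against 7.70, 7.80 and 7.84 in basal shLUC, a change of 0.10 ± 0.11 (adjusted p = 0.713). For both genes the arrays of the groups overlapped and the 95% interval of the change included 0.

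Hspb1 encodes Hsp27, the small heat shock protein that binds unfolding proteins and actin filaments. It read 6.09, 6.19 and 6.10 in basal shROR2, against 6.19, 6.01 and 6.21 in basal shLUC, with a change of -0.01 ± 0.10 (95% interval -0.25 to 0.23). The mitochondrial chaperonin genes gave similarly small values. Hspd1, which encodes the barrel subunit Hsp60, read 3.14, 3.39 and 3.11 in basal shROR2, against 3.15, 3.08 and 3.10 in basal shLUC, a change of 0.10 ± 0.13. Its lid, encoded by Hspe1, read 5.96, 5.89 and 5.80 in basal shROR2, against 5.98, 5.81 and 5.74 in basal shLUC, a change of 0.04 ± 0.10. The 3 Hspe1 probes ranged from -0.04 to 0.08. The pair that shares the heat shock element printed above was thus not called, with adjusted p of 0.755 for Hspd1 and 0.900 for Hspe1.

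**Figure D2:**
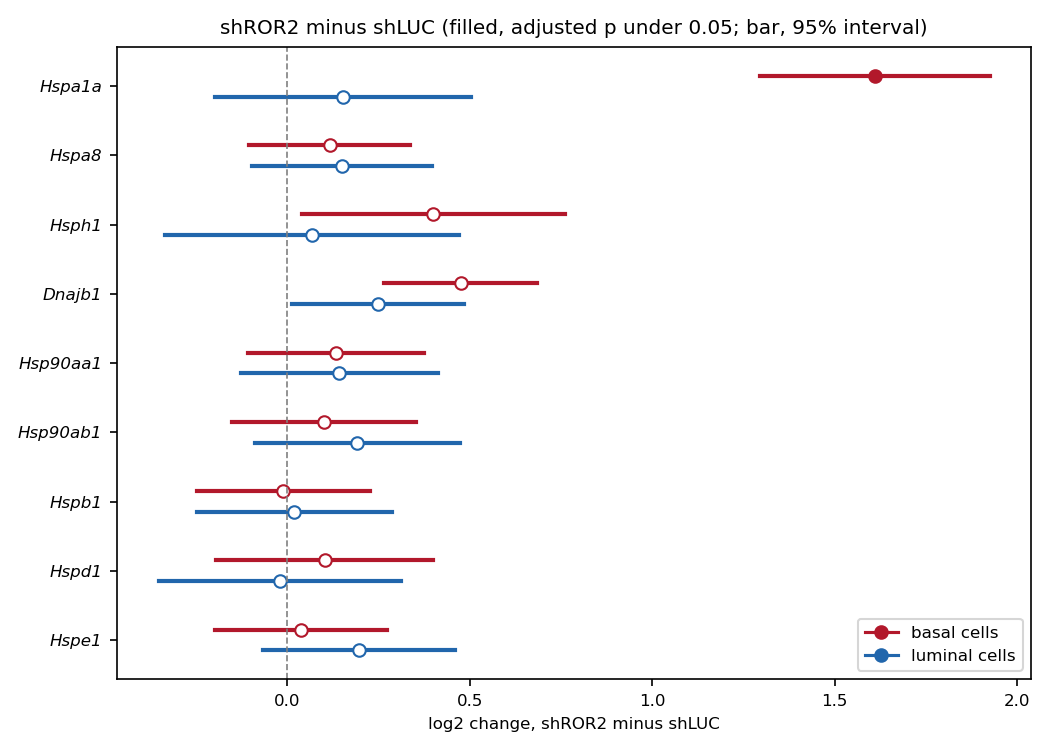
Log2 change with the Ror2 hairpin (shROR2 minus shLUC, horizontal axis) of the 9 genes (vertical axis) in basal cells (red) and luminal cells (blue), with bars for the 95% interval of the fit and filled points for an adjusted p under 0.05. Hspa1a in basal cells, at 1.61, is the only filled point.

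In luminal cells limma called none of the 9 genes (1 of them, Dnajb1, was at an unadjusted p under 0.05), beside a background of 0.0034% (1 of 29430, with 1634 features at an unadjusted p under 0.05). Hspa1a read 1.13 and 1.13 in luminal shROR2, against 1.07, 1.00 and 0.86 in luminal shLUC. The groups did not overlap, but the change was only 0.15 ± 0.15 (95% interval -0.20 to 0.50, limma adjusted p = 1.00). Dnajb1 read 6.45 and 6.45 in luminal shROR2, against 6.17, 6.25 and 6.18 in luminal shLUC. Its change of 0.25 ± 0.10 was the largest of the 9 in this layer and did not pass (adjusted p = 0.866). Of the 9 genes, 5 did not overlap between the hairpins and were higher in luminal shROR2, against 14.3% of all features, counted on the brightest probe of each gene: Hspa1a, Hspa8, Dnajb1, Hsp90aa1 and Hspe1. The remaining genes overlapped. The median change of the 9 genes was 0.15, and of all features -0.00.

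Hspa8 read 6.03 and 6.03 in luminal shROR2, against 5.83, 5.87 and 5.93 in luminal shLUC, a change of 0.15 ± 0.11. Hsp90aa1 read 4.26 and 4.29 in luminal shROR2, against 4.12, 4.16 and 4.13 in luminal shLUC, a change of 0.14 ± 0.12. Hspe1 read 5.84 and 5.82 in luminal shROR2, against 5.59, 5.69 and 5.63 in luminal shLUC, a change of 0.20 ± 0.12. For each, the luminal shROR2 arrays of the brightest probe were the higher ones and the interval of the change included 0. The other probes gave less: for Hspa8 they gave 0.07, with overlapping arrays, and 0.09, and for Hspe1 0.07 and 0.10, both with overlapping arrays. Hsph1 read 3.88 and 3.39 in luminal shROR2, against 3.60, 3.67 and 3.43 in luminal shLUC, so that 1 luminal shROR2 array was the highest and the other the lowest of the layer. Hsp90ab1 (0.19 ± 0.12), Hspb1 (0.02 ± 0.12) and Hspd1 (-0.02 ± 0.15) also overlapped. Markers of other cells stood higher beside these values, none of them called: fibroblast sums, in units of the 75th percentile, were 11.2 to 11.8 in luminal shROR2, against 6.53 to 6.69 in luminal shLUC, and adipocyte sums 10.7 to 12.5 in luminal shROR2, against 5.34 to 6.82 in luminal shLUC. The adipocyte sums hold only 2 of 5 listed genes, Fabp4 (0.97 ± 0.16) and Plin1 (0.25 ± 0.42). Only 1 of them lay well above background on every luminal shLUC array. Endothelial sums were 13.2 to 13.6 in luminal shROR2, against 10.7 to 11.5 in luminal shLUC, and leukocyte sums 107.5 to 109.3 in luminal shROR2, against 85.3 to 86.7 in luminal shLUC. Their part in the luminal changes was not tested.

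The hairpin change of Hspa1a was larger in basal than in luminal cells by 1.46 ± 0.21 (95% interval 0.99 to 1.93). This difference was not called over all features (limma adjusted p = 0.133), where the background was 0% (0 of 29430 by limma, with 2440 at an unadjusted p under 0.05). In the authors' table it was 1.17 with an adjusted p of 0.0422, and under the other settings the adjusted p ranged from 0.0555 to 0.277, and with 1 array left out from 0.0673 to 0.381. For the other genes the difference lay between -0.16 for Hspe1 and 0.33 for Hsph1, and each interval included 0. The Dnajb1 difference was 0.23 ± 0.14.

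Basal and luminal cells were also set against each other within each hairpin. In the control outgrowths 26.9% of all 29430 features were called in either direction, 4029 higher and 3901 lower in basal cells. Of the 9 genes, 3 were called higher in basal cells. Hsph1 was higher by 0.99 ± 0.16 (adjusted p = 0.00183), with basal shLUC at 4.45 to 4.66, against luminal shLUC at 3.43 to 3.67. The second Hsph1 probe gave 1.12 ± 0.15. Hspb1 was higher by 0.63 ± 0.10 (adjusted p = 0.00229), with basal shLUC at 6.19, 6.01 and 6.21, against 5.41, 5.60 and 5.53 in luminal shLUC. Hsp90aa1 was higher by 0.41 ± 0.11 (adjusted p = 0.0200), a call that was lost when any 1 luminal shLUC array, basal shLUC replicate 1 or basal shLUC replicate 3 was left out, with adjusted p of 0.0533 to 0.0774. Hspa1a lay at 0.72, 0.85 and 0.62 in basal shLUC, against 1.07, 1.00 and 0.86 in luminal shLUC, lower in basal cells on every array but not called (-0.25 ± 0.14, adjusted p = 0.223).

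With the Ror2 hairpin 22.8% of all 29430 features were called in either direction, 3111 higher and 3610 lower in basal cells. Of the 9 genes, 5 were called higher in basal cells. These were the 3 genes called in the controls, at 1.32 ± 0.18 for Hsph1, 0.59 ± 0.12 for Hspb1 and 0.40 ± 0.12 for Hsp90aa1, together with Hspa1a and Dnajb1. Hspa1a was higher in basal shROR2 than in luminal shROR2 by 1.21 ± 0.15 (limma adjusted p = 0.000615), where the control outgrowths gave -0.25. Dnajb1 was higher by 0.39 ± 0.10 (adjusted p = 0.0254), against 0.16 ± 0.09 (adjusted p = 0.234) in the controls. The Hsp90aa1 call (adjusted p = 0.0394) held in only 2 of 11 fits with 1 array left out, those without basal shLUC replicate 1 and without basal shROR2 replicate 1, and in the other 9 the adjusted p was 0.0525 to 0.179. Without luminal shROR2 replicate 1 or 2 the adjusted p of Dnajb1 was 0.123 and 0.121. Dnajb1 also missed the threshold without basal shROR2 replicate 1 (0.0515), and Hspb1 without luminal shROR2 replicate 2 (0.0534).

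**Figure D3:**
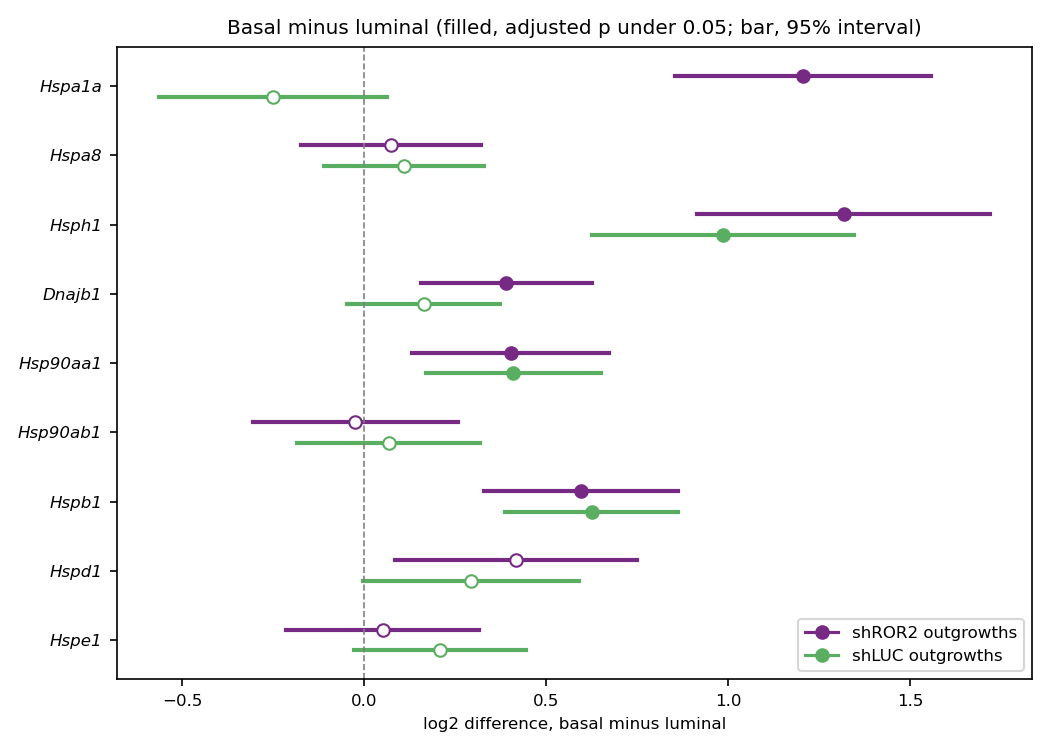
Log2 difference of basal minus luminal cells (horizontal axis) for the 9 genes (vertical axis) in shROR2 outgrowths (purple) and shLUC outgrowths (green), with bars for the 95% interval and filled points for an adjusted p under 0.05. Hsph1, Hsp90aa1 and Hspb1 are filled for both hairpins, and Hspa1a and Dnajb1 for shROR2 alone; Hspa1a lies at 1.21 in shROR2 and at -0.25 in shLUC.

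For Hspa1a the order of group means was basal shROR2 (2.34 ± 0.23), luminal shROR2 (1.13 ± 0.00), luminal shLUC (0.98 ± 0.11) and basal shLUC (0.73 ± 0.12), each with its SD. Only the step from basal shROR2 to the next was called, and the other neighbours did not pass the test. For Dnajb1 the order was basal shROR2 (6.84 ± 0.08), luminal shROR2 (6.45 ± 0.00), basal shLUC (6.36 ± 0.04) and luminal shLUC (6.20 ± 0.04), where again the first step was called, the middle one was not tested and the last did not pass. Hsph1 and Hspb1 instead separated by layer, Hsph1 at 4.95 ± 0.18 in basal shROR2 and 4.55 ± 0.10 in basal shLUC, above 3.64 ± 0.35 in luminal shROR2 and 3.57 ± 0.12 in luminal shLUC. Hspb1 stood at 6.13 ± 0.05 in basal shROR2 and 6.14 ± 0.11 in basal shLUC, above 5.53 ± 0.04 in luminal shROR2 and 5.51 ± 0.10 in luminal shLUC. By smaller margins, every basal array also lay above every luminal array for Hsp90aa1 and Hspd1. The lowest basal values were 4.45 for Hsp90aa1 and 3.08 for Hspd1, against highest luminal values of 4.29 and 3.00.

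Other chaperone genes were not called with the hairpin in basal cells. None of 25 other cytosolic chaperones and co-chaperones passed the test (median -0.04), and Hspb8, the small heat shock protein that works with Bag3, stood at 0.57 ± 0.18 (adjusted p = 0.176). None of 7 heat shock factors and regulators passed, with Hsf1 itself at -0.38 ± 0.17 (adjusted p = 0.314). The counts were also 0 of 10 for other Hsp70 and small heat shock genes (median -0.13), 0 of 12 for mitochondrial chaperones and proteases (-0.02) and 0 of 8 for subunits of the cytosolic chaperonin TRiC (-0.15). For chaperones and stress response genes of the endoplasmic reticulum the count was 0 of 20 (-0.09), and for oxidative stress genes 0 of 13 (-0.08). Together these 7 lists held 95 tested genes, of which limma called 0, with 18 at an unadjusted p under 0.05, where all 29430 features held 285 calls (0.968%) and 4644 at an unadjusted p under 0.05. In luminal cells limma called 0 of the 95 as well, with 3 at an unadjusted p under 0.05. Among all 29430 features 1 was called there (0.0034%), and 1634 were at an unadjusted p under 0.05. The 25 cytosolic chaperones had a median change of 0.13 in luminal cells, against -0.0019 for all features.

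**Figure D4:**
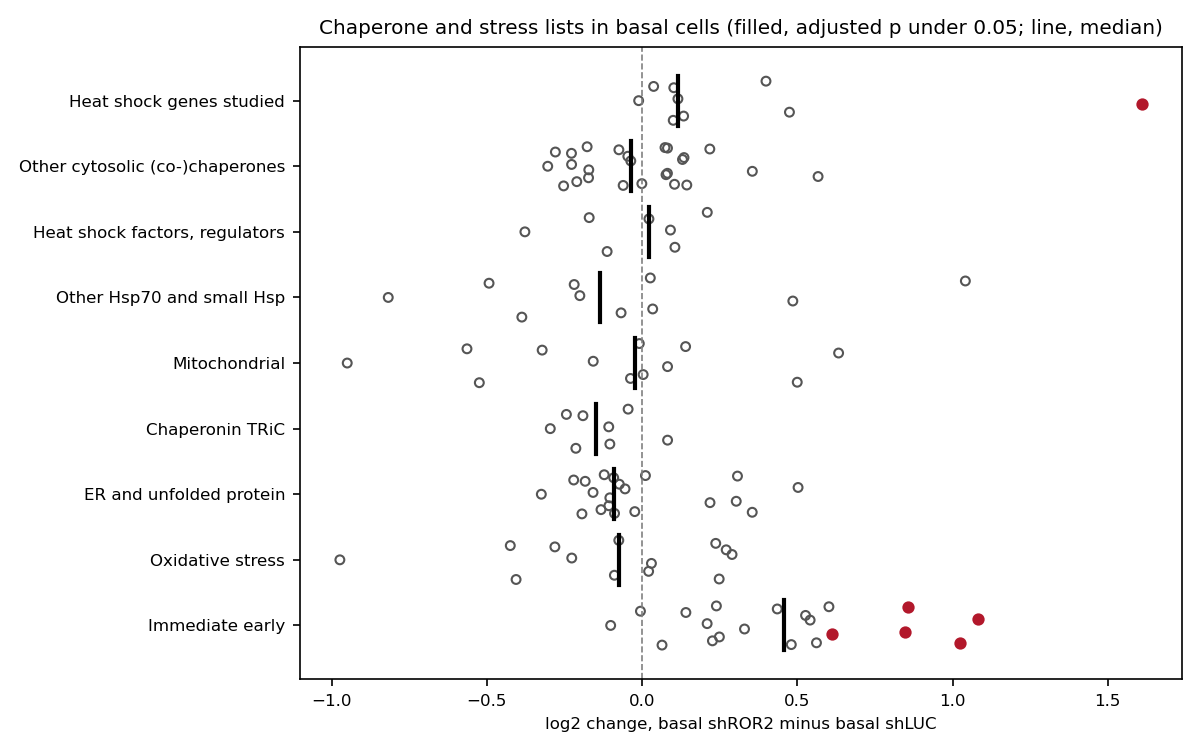
Log2 change with the Ror2 hairpin in basal cells (basal shROR2 minus basal shLUC, horizontal axis) of each measured gene in 9 lists (vertical axis), with filled points for an adjusted p under 0.05 and a vertical line at the median of each list. Among the 8 chaperone and stress lists above the immediate early genes, Hspa1a at 1.61 is the only filled point; 5 of 20 immediate early genes are filled.

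Between the layers the wider chaperone lists were mixed. Their counts stand beside the 26.9% of all features called in either direction in the control outgrowths, 4029 higher and 3901 lower. In shLUC outgrowths 6 of 25 other cytosolic chaperones were called higher and 3 lower in basal cells, with Hspb8 at 3.27 ± 0.18 (limma adjusted p = 2.08e-06) and the lens and muscle small heat shock gene Cryab at 1.00 ± 0.10. Of 10 other Hsp70 and small heat shock genes 3 were higher: Hspb3 by 5.22 ± 0.39, Hspa2 by 2.11 ± 0.14 and Hspb6 by 1.35 ± 0.13. Chaperonin TRiC subunits were higher in 3 of 8. Of 20 endoplasmic reticulum genes 2 were higher and 8 lower, with the collagen chaperone Serpinh1 higher by 2.84 ± 0.15 and the secreted stress protein Manf lower, at -0.88 ± 0.11. Hsf1 was higher in basal cells by 0.72 ± 0.17 (adjusted p = 0.0114).

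Other transcripts moved with the hairpin beside Hspa1a in basal cells. Immediate early genes, which dissociation of a tissue is known to induce, were called higher in 5 of 20 (median 0.46), where 0.968% of all features were called in either direction and 113 of 29430 were higher: Btg2 by 1.08 ± 0.12, Atf3 by 1.03 ± 0.10, Fosb by 0.86 ± 0.09, Egr1 by 0.85 ± 0.12 and Fos by 0.61 ± 0.10. Their summed signal, in units of the 75th percentile, was 1025 to 1111 in basal shROR2, against 704 to 753 in basal shLUC, and 1222 to 1356 in luminal shROR2, against 1083 to 1173 in luminal shLUC. Between basal and luminal shROR2, where 22.8% of all features were called, 7 of these 20 genes were called higher and 7 lower (median 0.05).

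The cell type markers stand beside the same 0.968% of all features called in either direction in basal cells. Endothelial markers were called higher in 2 of 6, Emcn (1.503 ± 0.28) and Plvap (1.35 ± 0.23), with sums of 35.5 to 44.6 in basal shROR2, against 19.2 to 24.0 in basal shLUC. Leukocyte markers were called in 2 of 7 tested of 8 listed, Cd74 (1.27 ± 0.13) and H2-Ab1 (1.12 ± 0.13), with sums of 88.3 to 97.3 in basal shROR2, against 59.2 to 62.6 in basal shLUC. The other leukocyte markers were not called, with H2-Aa at 0.72, Lyz2 at 0.67, Cd3e at 0.29, Ptprc at 0.03 and Csf1r at -0.01. Of 2 adipocyte markers that passed the filter, of 5 listed, Fabp4 was higher (1.02 ± 0.14), with sums of 43.4 to 53.7 in basal shROR2, against 22.0 to 25.0 in basal shLUC. Luminal markers held no call in 10 (sums 93.6 to 117 in basal shROR2, against 79.1 to 81.7 in basal shLUC), and pericyte markers none in 3 (4.76 to 6.42, against 3.26 to 3.88). Neither myoepithelial markers (0 of 8, sums 1422 to 1469, against 1488 to 1658) nor fibroblast markers (0 of 7, sums 50.9 to 67.4, against 52.2 to 56.8) held a call. All 6 endothelial, 7 leukocyte and 2 adipocyte markers that were tested lay well above background on every basal shROR2 array. The immediate early, endothelial, leukocyte and adipocyte genes called in basal cells were not called in luminal cells. Their changes there were 1.09 for Plvap, 0.97 for Fabp4, 0.88 for Btg2, 0.80 for Emcn, 0.58 for H2-Ab1 and 0.56 for Cd74. Those of Fosb, Egr1, Atf3 and Fos were 0.35, 0.34, 0.31 and 0.26, and that of Hspa1a was 0.15. The part of these transcripts in the Hspa1a result was not tested. In sorted bulk samples, fewer cells of a type and less RNA per cell cannot be told apart.

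The layers differed in the same markers. In basal shLUC against luminal shLUC, fibroblast markers were called higher in 7 of 7 and endothelial markers in 4 of 6, while 4 of 7 leukocyte markers were called lower. Of all features, 26.9% were called in either direction in that comparison. Fibroblast sums were 52.2 to 56.8 in basal shLUC, against 6.53 to 6.69 in luminal shLUC, and endothelial sums 19.2 to 24.0 in basal shLUC, against 10.7 to 11.5 in luminal shLUC. Leukocyte sums were 59.2 to 62.6 in basal shLUC, against 85.3 to 86.7 in luminal shLUC. In shROR2 outgrowths, endothelial sums were 35.5 to 44.6 in basal cells, against 13.2 to 13.6 in luminal cells, and leukocyte sums 88.3 to 97.3 in basal cells, against 107.5 to 109.3 in luminal cells. Their part in the layer differences of the heat shock genes was not tested.

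Across the 11 arrays, the named genes whose profile was most like that of Hspa1a were the insulin receptor substrate gene Irs1 (Pearson r = 0.953), Mmrn1 (0.936), Kctd12 (0.927), Cep131 (0.917) and N4bp3 (0.916). The arrays fall into 4 groups, so these values mostly describe group means. With group means subtracted, different genes came first: Plekhh3 (0.971), Rabif (0.970), Spata31d1b (0.969), Dpp3 (0.966) and Ntng1 (0.945). For the mean of Hspa1a, Hsph1, Dnajb1, Hsp90aa1 and Hspa8, the most alike were Tle4 (0.964), Depp1 (0.963), Rbbp6 (0.961), Emcn (0.957) and Grrp1 (0.957), and after subtraction Yrdc (0.969), Pde4a (0.967), Dok1 (0.959), Ssr3 (0.956) and Pkm (0.953). The first 5 genes were picked for likeness to Hspa1a, which was highest in basal shROR2. A rise in that group was built into the choice and is no further support. Their changes in basal cells were 1.30 for Irs1 and 3.05 for the platelet and endothelial gene Mmrn1. Kctd12 gave 0.84, Cep131 1.18 and N4bp3 0.57, the last not called (limma adjusted p = 0.0783). Among the heat shock genes Dnajb1 followed Hspa1a most closely over the 11 arrays (r = 0.90). Once group means were subtracted, r with Hspa1a was 0.34 for Dnajb1, 0.53 for Hsph1 and -0.78 for Hspa8, each on its brightest probe. The Hspa8 value depends on the probe. The brightest was lowest on basal shROR2 replicate 2 (6.15, 6.01 and 6.15), where Hspa1a was highest. Another Hspa8 probe was highest on that array (5.97, 6.09 and 5.98). These correlations are descriptions over arrays that share their groups.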

How the data were processed

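Per the labels' protocols, RNA of the sorted cells was isolated with a PicoPure kit, amplified with the NuGEN Ovation Pico kit and hybridized to one-colour Agilent arrays. The deposited scanner files hold, per the file headers, processed intensity from Agilent Feature Extraction (11.0.1.1), corrected for background and for spatial trend but not scaled between arrays. The authors' table is a linear intensity table with column medians of 88.8 to 89.3, uncentred and not made of ratios. No source used here names the tool behind it or any background step.

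Spots of a probe were averaged, outlier spots left out, and log2 values were set relative to each array's 75th percentile. Probes well above background on at least 3 of 11 arrays were kept (33630), and a gene took its brightest probe. Probes were named through RefSeq accessions with a gene table of GRCm38.p6, giving a symbol to 26582 probes and none to 29099. One limma model (3.58.1, R 4.3.3, data.table, 1.17.8) with a mean for each of 4 groups used every array, with 1.85 prior degrees of freedom and 2-sided tests, with Benjamini-Hochberg adjustment over 29430 features, and it was tested on simulated data. Tables and figures were made in Python 3.11.15 with pandas 2.3.3, scipy 1.17.1 and matplotlib 3.10.9. Promoter sequences are from RefSeq.

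Samples were grouped by their labels. The number of arrays limits the precision. The genes and lists were chosen with earlier results of these data known. Named are the 10 heat shock genes, Ror2, of each list those called with a hairpin, the 4 smallest p with the hairpin in basal cells and 2 between the layers, and the 5 most alike genes. Alternatives changed the scaling, background correction, filter, probes, array weights, blocks and arrays used. The normexp alternative used median spot signals, since the files hold no mean signal. Replicate numbers were taken from the sample titles. They were not used to pair the samples in the main model.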

Additional observations from a re-analysis of the deposited data

How the results depend on the processing

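The Hspa1a change in basal cells kept its sign and call under 10 of 11 other settings (1.33 to 1.68) and with each array left out; with only the groups compared none of the 9 genes and 0 features were called, and with the authors' table, normexp, median scaling or probes well above background on 6 arrays 2 genes were, Dnajb1 being the second (adjusted p 0.0122, 0.0168, 0.0487 and 0.0464). All features called in that comparison were 285, against 693 with normexp, 539 in the authors' table, 136 with no filter, 133 with the slide as a block, 44 with array weights and 37 with the replicate block. Leaving out 1 array gave 21 (without basal shLUC replicate 1) to 887 (without basal shROR2 replicate 1), and 75 to 95 without any 1 luminal array, 35 without basal shLUC replicate 2 and 78 without basal shLUC replicate 3; the cause was not tested. Of the calls 39.6% were higher, and 53.2% with median scaling. In luminal cells 1 feature was called, against 62 with array weights, 23 with normexp, 22 in the authors' table, 5 with quantile normalization or the stricter filter, 3 with no filter, 0 with median scaling, the mean of probes, either block or only the groups compared, and 0 to 10 with an array left out. For the difference between the layers 0 were called, against 8 in the authors' table (1 of them Hspa1a), 7 with normexp, 2 with quantile normalization, 1 with median scaling and 0 to 8 with an array left out. Between basal and luminal shROR2, 6721 features and 5 heat shock genes were called, against 2827 and 2 with only those groups, 3774 to 7552 and 2 to 5 with an array left out, and 3 genes with no filter or with the replicate block. There were 6 genes called there with normexp or in the authors' table, Hspd1 being gained (adjusted p 0.0396 and 0.0389, and 0.0456 with the slide as a block), and Hspb1 was lost with only those groups (0.0981). Hsp90aa1 was lost there under 5 of 11 other settings and Dnajb1 under 3. Under the replicate block the Hspa1a change in basal cells kept its call (adjusted p = 0.0193). Deviations from group means of the 15 same-numbered pairs correlated at -0.09 to 0.10. Most of these pairs join different hairpins, and deviations within so small a group cancel out. Whether same-numbered arrays share an outgrowth therefore cannot be told from these values. No direction of a called result was turned by any setting.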
